A study of Mus musculus with 12 samples.

Results

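The first week on a choline-deficient, high-fat diet was compared with the first week on chow in the mouse liver, over 13900 genes measured on 4 of the series' 12 arrays. These were the arrays whose titles place them in the 1-week diet group or in the 1-week control group, 2 of each. The 2 arrays of the diet group came from livers of male C57BL/6NJcl mice fed for 1 week on CDAHFD, a choline-deficient, L-amino acid-defined feed in which fat gives 60% of the energy and methionine makes up 0.1% of the weight, which the labels call NASH livers. The 2 control arrays came from livers of the same strain, sex and age kept on the chow CE-2. All mice were bought at 5 weeks of age, were acclimatised for 1 week and were 7 weeks old at this time point. CE-2 differs from CDAHFD in more than choline, methionine and fat, since it is a natural-ingredient chow and CDAHFD supplies free amino acids, so a difference cannot be assigned to a single nutrient. The remaining 8 arrays, from weeks 2 and 6 of the same diets, served as a common estimate of spread and to show which differences came with the first week. The labels do not say whether replicates were separate mice, so each p measures only the spread between arrays, which may be technical.

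Choline is needed to make phosphatidylcholine, the main phospholipid of membranes and of the coat of very-low-density lipoprotein (VLDL), the particle in which the liver exports triglyceride. Methionine feeds the methyl donor S-adenosylmethionine, with which the liver can make phosphatidylcholine without dietary choline, so a shortage of both limits both routes. Cells sense amino acid and other nutrient shortages through the integrated stress response, in which kinases phosphorylate the initiation factor eIF2alpha, the factor ATF4 is translated, and target genes are switched on. Fat that stays in hepatocytes is known to be followed by the recruitment of monocytes, by macrophages that take up lipid and by fibrosis.

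Each array held 59305 gene spots, of which 50.8% and 50.9% were well above background on the CDAHFD arrays of 1 week, against 41.8% and 45.7% on the control arrays. A dim corner on control replicate 1 held 308 spots that were at least 8-fold below all other arrays, against 0 such spots elsewhere on it, and 2161 of the genes tested were read by a probe in that corner. Values without those spots are given beside the genes in which they moved by over 0.05, and for most such genes they then rest on control replicate 2 alone. The defining hepatocyte markers Alb and Ttr were bright on all 4 arrays. Levels below are log2 intensities after subtraction of each array's 75th percentile. A difference is CDAHFD minus control on this log2 scale, so that 1 is a 2-fold difference, with the median difference of all genes (0.13) subtracted, its standard error from the fit across all genes, and a Benjamini-Hochberg adjusted p called below 0.05. The p tests the difference before that median is subtracted, so a printed difference and its standard error do not give the p. Signal of a probe cannot tell fewer cells of a type from less RNA per cell, and this holds for every gene below.

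After 1 week 5689 of the 13900 genes were called between the diets (40.9%), 3603 of them higher on CDAHFD (25.9%) and 2086 lower (15%). These shares are the background for every list below. With a difference of at least 2-fold as well, 1931 genes were higher (13.9%) and 509 lower (3.66%). The balance of directions depended on the scaling, since 2296 genes were called higher (16.5%) and 4069 lower (29.3%) of 45.8% called when the percentile was taken over all probes. Median centring called 47.2%, with 2164 higher (15.6%) and 4399 lower (31.6%), and normexp background correction called 32.7%, with 1510 higher (10.9%) and 3039 lower (21.9%). Quantile normalization called 36%, with 2971 higher (21.4%) and 2036 lower (14.6%), and with the dim corner masked 41.1% were called, 26.3% higher and 14.8% lower. Brightness moved with the difference: the dimmest 2780 genes had a median difference of 0.28 and the brightest 2780 of -0.35, and its part in the results was not tested. Without CDAHFD replicate 1 the calls numbered 3079 (22.2%; 14.8% higher and 7.34% lower), and 3065 of the 5689 kept call and direction. Without control replicate 1 they numbered 4078 (29.3%), with 2816 higher (20.3%) and 1262 lower (9.08%), and 3839 of the 5689 kept their call. Genes are named below by a rule on lists, size and p. Atf4, Psat1, Cbs and Mlxipl were added after their values were seen.

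**Figure D1:**
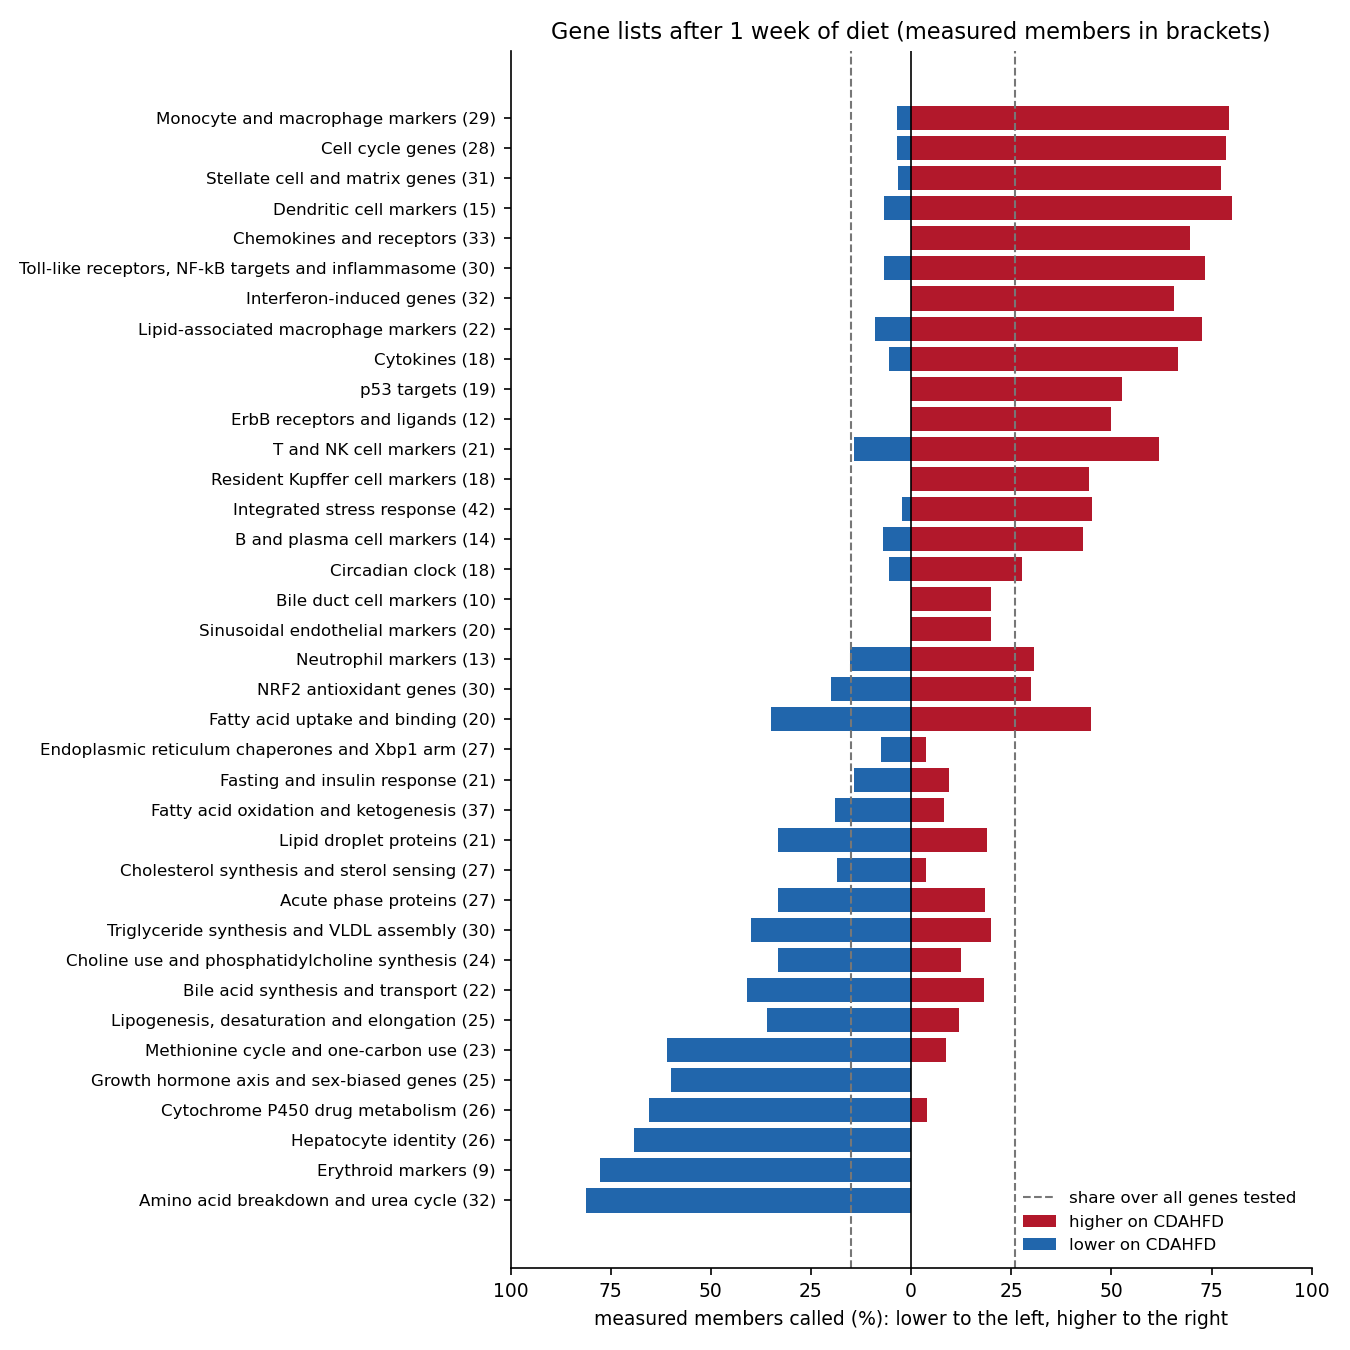
Share of the measured members of each gene list that was called higher (red, to the right) or lower (blue, to the left) on CDAHFD than on the control diet after 1 week, in percent, with the number of measured members in brackets. Dashed lines mark the shares over all genes tested, 25.9% higher and 15% lower, and the immune, matrix and cell cycle lists stand at the top while amino acid, erythroid and hepatocyte lists stand at the bottom.

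Some genes of the integrated stress response were higher, with the hormone gene Fgf21 at the top, and others were not called. Of its 42 measured members of 44, 19 were higher on CDAHFD, 1 was lower and 22 were not called, with a median difference of 0.63, or 0.48 with the genes below background in 1 group set at their bound. With median centring or the all-probe percentile 13 were higher and 4 lower. The promoters of 4 of the higher members are shown because each holds TGATGNAA, the core of the element that ATF4 and CHOP bind with C/EBP partners, and they are the 4 with the smallest adjusted p among the higher members that hold it. Each line gives the 250 bases before a start of the gene in the table (the only one for Atf3, Fgf21 and Nupr1, and the one of 3 that holds the motif for Jdp2), 5′ to 3′ on the gene's strand, from the RefSeq table of assembly GRCm38.p6, with the motif in capitals, which reads TTGCATCA where it lies on the opposite strand.
Atf3: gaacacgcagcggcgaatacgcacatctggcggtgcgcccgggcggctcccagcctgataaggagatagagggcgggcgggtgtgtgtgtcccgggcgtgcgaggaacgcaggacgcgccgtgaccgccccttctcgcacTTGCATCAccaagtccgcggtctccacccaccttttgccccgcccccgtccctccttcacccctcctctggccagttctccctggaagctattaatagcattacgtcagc
Fgf21: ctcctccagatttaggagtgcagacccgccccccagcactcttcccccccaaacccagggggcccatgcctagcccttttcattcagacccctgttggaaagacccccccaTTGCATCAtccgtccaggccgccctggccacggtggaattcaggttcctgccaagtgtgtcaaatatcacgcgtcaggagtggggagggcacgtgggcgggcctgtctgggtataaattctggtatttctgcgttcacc
Nupr1: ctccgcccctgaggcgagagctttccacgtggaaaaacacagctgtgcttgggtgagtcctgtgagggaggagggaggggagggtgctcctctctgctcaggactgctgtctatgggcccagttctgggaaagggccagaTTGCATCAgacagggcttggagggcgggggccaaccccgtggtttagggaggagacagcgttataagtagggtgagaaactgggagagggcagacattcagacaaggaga
Jdp2: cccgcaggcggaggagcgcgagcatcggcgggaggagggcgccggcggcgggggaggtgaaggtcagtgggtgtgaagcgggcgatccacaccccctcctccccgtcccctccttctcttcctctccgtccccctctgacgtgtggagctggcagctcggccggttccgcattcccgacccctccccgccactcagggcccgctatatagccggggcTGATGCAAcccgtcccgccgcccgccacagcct
These lie at chr1:191183334-191183583 on the minus strand for Atf3, chr7:45615491-45615740 on the minus strand for Fgf21, chr7:126625471-126625720 on the minus strand for Nupr1 and chr12:85599166-85599415 on the plus strand for Jdp2. The motif was searched on both strands in these 250 bases and begins 110 bases before the start in Atf3 and Nupr1, 139 in Fgf21 and 33 in Jdp2. It was found in 1134 of 32851 promoters of the same length (3.45%), and in at least 1 promoter of 3.91% of the genes in the table. On that count by gene it was found in 6 of the 18 higher members with a promoter in the table and in 5 of the 18 that were not called.

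Fgf21, a liver hormone released under nutrient stress, read 1.0 and -0.11 on the CDAHFD arrays, against -7.52 and -6.19 on the control arrays, of which 1 was above background. The groups stood far apart, with a difference of 7.17 ± 0.64 (adjusted p = 0.00013), 6.51 without control replicate 1, 7.85 without control replicate 2 and 6.29 against the later controls. Nupr1, a chromatin protein of the stress response, read 1.27 and 0.56 on CDAHFD and -4.42 and -3.99 on the control diet, a difference of 4.99 ± 0.62 (adjusted p = 0.00072). Atf3, a transcription factor induced by ATF4, read -1.08 and -2.05 on CDAHFD and -5.92 and -5.90 on the control diet, a difference of 4.22 ± 0.31 (adjusted p = 1.1e-05) that was 4.21 without the dim corner. All 3 genes were high on both CDAHFD arrays and low on both control arrays, which restates these values and adds no support.

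Further members of this list were called higher. Psat1, which makes phosphoserine in serine synthesis, read -1.42 and -1.79 on CDAHFD, against -5.68 and -5.50 on the control diet, a difference of 3.85 ± 0.58. The enzyme before it in the same pathway, Phgdh, read -3.31 and -3.39 on CDAHFD, against -5.22 and -5.83 on the control diet, a difference of 2.04 ± 0.35. Slc7a1, a carrier of cationic amino acids, differed by 2.12 ± 0.24, and Ddit3, which encodes CHOP, by 1.37 ± 0.27. Jdp2, a repressor of the AP-1 family, differed by 1.01 ± 0.28, or 1.13 without the dim corner, but missed the threshold without CDAHFD replicate 2 (0.86, adjusted p = 0.054). The sensor kinase Eif2ak4 (GCN2) was higher by 0.78 ± 0.12, and against the later controls its difference was 0.16 (adjusted p = 0.14). Atf4 itself was not called, with 3.79 and 3.49 on CDAHFD, against 3.37 and 3.33 on the control diet, a difference of 0.16 (adjusted p = 0.068), and asparagine synthetase, Asns, was not called either, at 0.71 ± 0.68. Atf4 was called higher with quantile normalization (0.67) and normexp (0.57), while Phgdh (0.66) and Jdp2 (0.47) lost their calls with normexp. Of the 19 higher members, 14 were also higher at 2 weeks and 15 at 6 weeks. Of all genes higher at 1 week, 64.1% and 65.7% were, so this is not particular to the list.

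**Figure D2:**
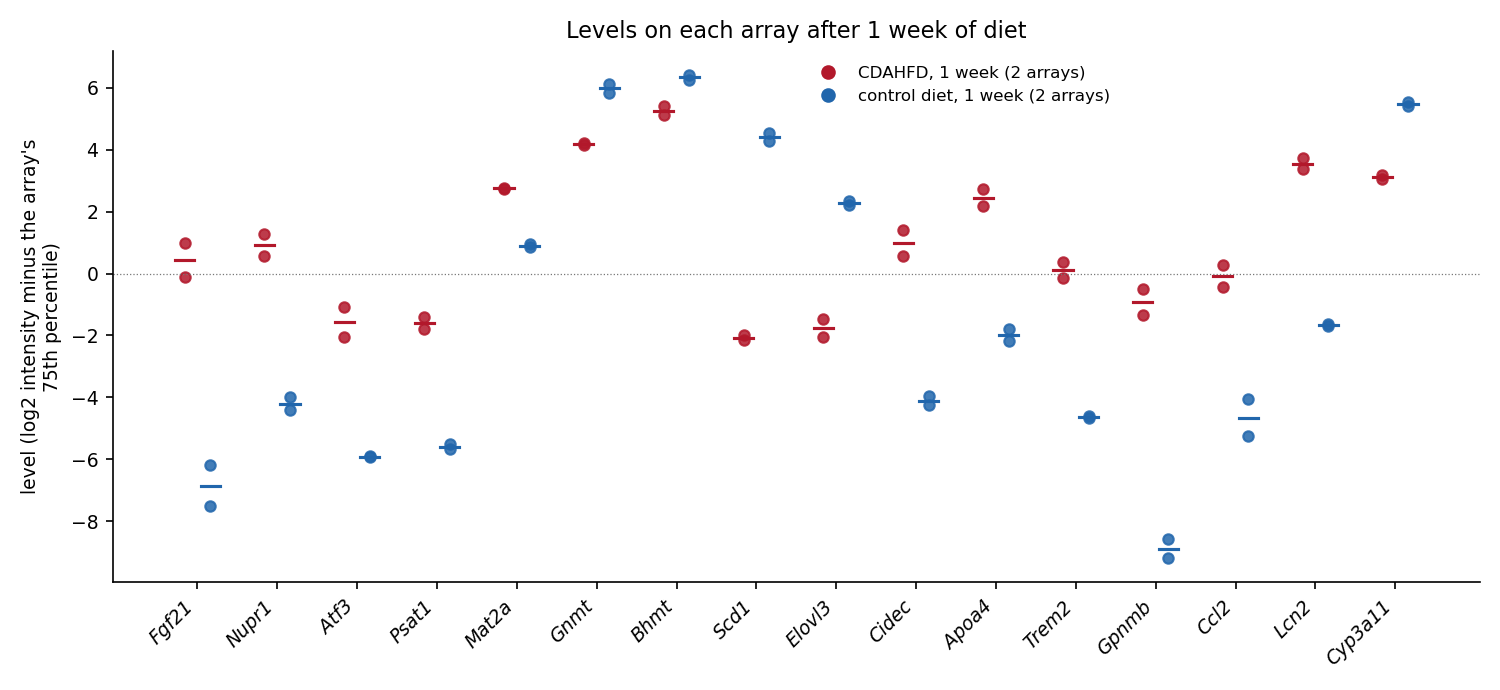
Level of 16 genes on each array after 1 week (log2 intensity minus the array's 75th percentile, vertical axis), CDAHFD in red left of the control diet in blue, with points for arrays and lines for the mean of 2. Fgf21, Nupr1, Atf3 and Psat1 sit above both control arrays on each CDAHFD array, Scd1 sits at -1.99 and -2.15 on CDAHFD, against 4.29 and 4.54 on the control diet, and Gpnmb was below background on both control arrays.

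Few genes of the chaperone arm of endoplasmic reticulum stress were called. Of 27 chaperone and Xbp1-arm members measured, 1 was higher and 2 were lower, with a median difference of -0.28. The chaperone Hspa5 (BiP) read 3.94 and 3.84 on CDAHFD, against 4.08 and 4.15 on the control diet, a difference of -0.36 ± 0.15 (adjusted p = 0.25). Xbp1 differed by -0.42 ± 0.15 (adjusted p = 0.16). Both were called lower with median centring, where 12 of the 27 members were lower. The 3 calls were Atf6 at 0.39, Calr at -0.90 and Herpud1 at -0.70. All 3 lost their calls without CDAHFD replicate 1 (0.41, -0.80 and -0.54) or CDAHFD replicate 2 (0.36, -1.01 and -0.86). Atf6 (0.35) and Calr (-0.96) also lost theirs without control replicate 1, as did Calr (-0.83) and Herpud1 (-0.51) without control replicate 2. At 2 weeks 10 members were lower and 0 higher, where 14.9% of all genes were lower.

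Enzymes that use methyl groups in the liver were lower, while the S-adenosylmethionine synthetase Mat2a was higher. Of 23 measured members of the methionine cycle and one-carbon list, 2 were higher and 14 lower, with a median difference of -0.83, and with quantile normalization 2 were higher and 7 lower, against 14.6% of all genes lower. Gnmt, which spends S-adenosylmethionine on glycine, read 4.14 and 4.20 on CDAHFD, against 6.13 and 5.84 on the control diet, a difference of -1.95 ± 0.23 (adjusted p = 0.00022). Bhmt, which remakes methionine with a methyl group of choline-derived betaine, read 5.41 and 5.11 on CDAHFD, against 6.25 and 6.41 on the control diet, a difference of -1.2 ± 0.14. The arrays of the 2 diets did not overlap for either gene. The share of all genes without overlap was not counted, so this adds no support to the calls. Aldh1l1, which oxidises formyl-folate, was lower by -1.49 ± 0.13, and Cbs, which draws homocysteine into cysteine synthesis, was lower by -1.53 ± 0.27, or -1.37 without the dim corner. With quantile normalization Bhmt (-0.38) and Cbs (-0.90) were not called. Mat2a, the form of that synthetase found mostly outside the adult liver, read 2.75 and 2.74 on CDAHFD, against 0.94 and 0.85 on the control diet, a difference of 1.72 ± 0.10 (adjusted p = 3.5e-06), which was 0.92 against the later controls. The adult liver synthetase, Mat1a, read 3.39 and 3.30 on CDAHFD, against 3.21 and 3.28 on the control diet, and its difference of -0.04 ± 0.22 was not called.

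Choline use showed both directions. Of 24 measured members of the choline and phosphatidylcholine list 3 were higher and 8 lower, with a median of -0.30, but without CDAHFD replicate 1 there were 3 higher and 2 lower. Pemt, which methylates phosphatidylethanolamine to phosphatidylcholine, read 3.39 and 3.70 on CDAHFD, against 4.09 and 4.20 on the control diet, a difference of -0.73 ± 0.14 (adjusted p = 0.0059) that was -0.55 (adjusted p = 0.067) without CDAHFD replicate 1 and was not called with quantile normalization (-0.17). Etnppl, which breaks down phosphoethanolamine, was lower by -1.84 ± 0.35, and Aldh7a1, which oxidises betaine aldehyde, by -1.5 ± 0.19. The 3 higher members were Pisd, Gdpd1 and Slc44a2. Pisd, which makes phosphatidylethanolamine in mitochondria, was higher by 0.82 ± 0.11, against 0.19 (adjusted p = 0.051) with the later controls. Gdpd1, a lysophospholipase D, was higher by 0.99 ± 0.24 and the transporter Slc44a2 by 0.39 ± 0.11, and both probes lie in the dim corner, without which the values were 1.11 and 0.40. Gdpd1 was not called with normexp (0.13), nor was Slc44a2 with median centring or normexp (0.53). Neither Pcyt1a, the rate-limiting step of the choline route (-0.30 ± 0.12, adjusted p = 0.25), nor the choline kinase Chka (-0.34 ± 0.22, adjusted p = 0.46) was called, though both were called lower with median centring.

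Most measured genes that break down amino acids were lower. Of 32 measured members of the amino acid breakdown and urea cycle list, 26 were lower and 0 were higher, with a median difference of -0.72. Differences ranged from -2.14 to 4.21, and the member at 4.21 was not called. The count was 15 lower without CDAHFD replicate 1 (against 7.34% of all genes) and 13 lower and 1 higher with quantile normalization. Hal, the enzyme that opens histidine breakdown, read 0.97 and 1.70 on CDAHFD, against 3.26 and 3.43 on the control diet, a difference of -2.14 ± 0.25. Haao, of the kynurenine route, differed by -1.61 ± 0.16 and the liver glutaminase Gls2 by -1.54 ± 0.13. Agxt, which handles glyoxylate, differed by -1.15 ± 0.13. Ass1 of the urea cycle read 4.88 and 5.25 on CDAHFD, against 6.32 and 6.10 on the control diet, a difference of -1.28 ± 0.15, while the mean with its other probe was 1.27, so its probes disagreed. Cps1, the entry enzyme of the urea cycle, differed by -0.71 ± 0.21 (adjusted p = 0.046) and lost its call without CDAHFD replicate 1 (-0.75), CDAHFD replicate 2 (-0.68) or control replicate 2 (-0.47), and with quantile normalization (-0.34). Against the later controls 28 members were lower and 0 higher, where 12.3% of all genes were lower.

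The genes of fatty acid desaturation and elongation Scd1 and Elovl3 were much lower. Scd1, the main desaturase of the liver, which turns stearate into oleate, read -1.99 and -2.15 on CDAHFD, against 4.29 and 4.54 on the control diet, a difference of -6.61 ± 0.98 (adjusted p = 0.0028). Elovl3, an elongase, read -2.05 and -1.46 on CDAHFD, against 2.22 and 2.34 on the control diet, a difference of -4.16 ± 0.46 (adjusted p = 0.00042), and -4.23 without the dim corner. Both genes were low on each CDAHFD array and high on each control array, which restates these values and adds no support. Of 25 measured lipogenesis genes 9 were lower and 3 higher, with a median difference of -0.47. Acss2, which activates acetate, was lower by -1.88 ± 0.20, the malic enzyme Me1 by -1.21 ± 0.20 and the acetyl-CoA carboxylase Acacb by -1.2 ± 0.16. Srebf1, the factor that drives lipogenesis, was lower by -1.2 ± 0.37 (adjusted p = 0.044) and lost its call when any of the 4 arrays was left out (range -1.38 to -1.03). Fasn, the fatty acid synthase, read -2.99 and -3.04 on CDAHFD, against -2.82 and -1.83 on the control diet, and was not called (-0.83 ± 0.73, adjusted p = 0.48).

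The 3 higher members of that list were Elovl7, Scd2 and Mlxipl. The elongase Elovl7 read -1.16 and -1.87 on CDAHFD and was below background on both control arrays, so it was at least 33.3-fold higher. Such bounds set the mean of the bright group against the lowest signal well above background on each dim array, or against the gene's own signal there where that was larger. In the latter case the value is the measured ratio and not a lower bound. They are not adjusted for the median. Scd2, the desaturase that dominates outside the liver, read -1.49 and -1.76 on CDAHFD, against -3.05 and -2.71 on the control diet, a difference of 1.13 ± 0.19. Mlxipl, which encodes the carbohydrate sensor ChREBP, was higher by 0.42 ± 0.17 (0.55 without the dim corner, and not called with median centring) but lower by -0.67 (adjusted p = 0.010) against the later controls, and lost its call without control replicate 2 (0.31) or either CDAHFD array (0.43 without replicate 1, 0.41 without replicate 2). Of 27 cholesterol synthesis genes 5 were lower and 1 was higher. Tm7sf2, a sterol reductase, was lower by -1.72 ± 0.12 and the sterol isomerase Ebp by -1.32 ± 0.14. At 6 weeks 18 of the 27 cholesterol genes were lower and 0 higher, where 16.2% of all genes were lower.

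**Figure D3:**
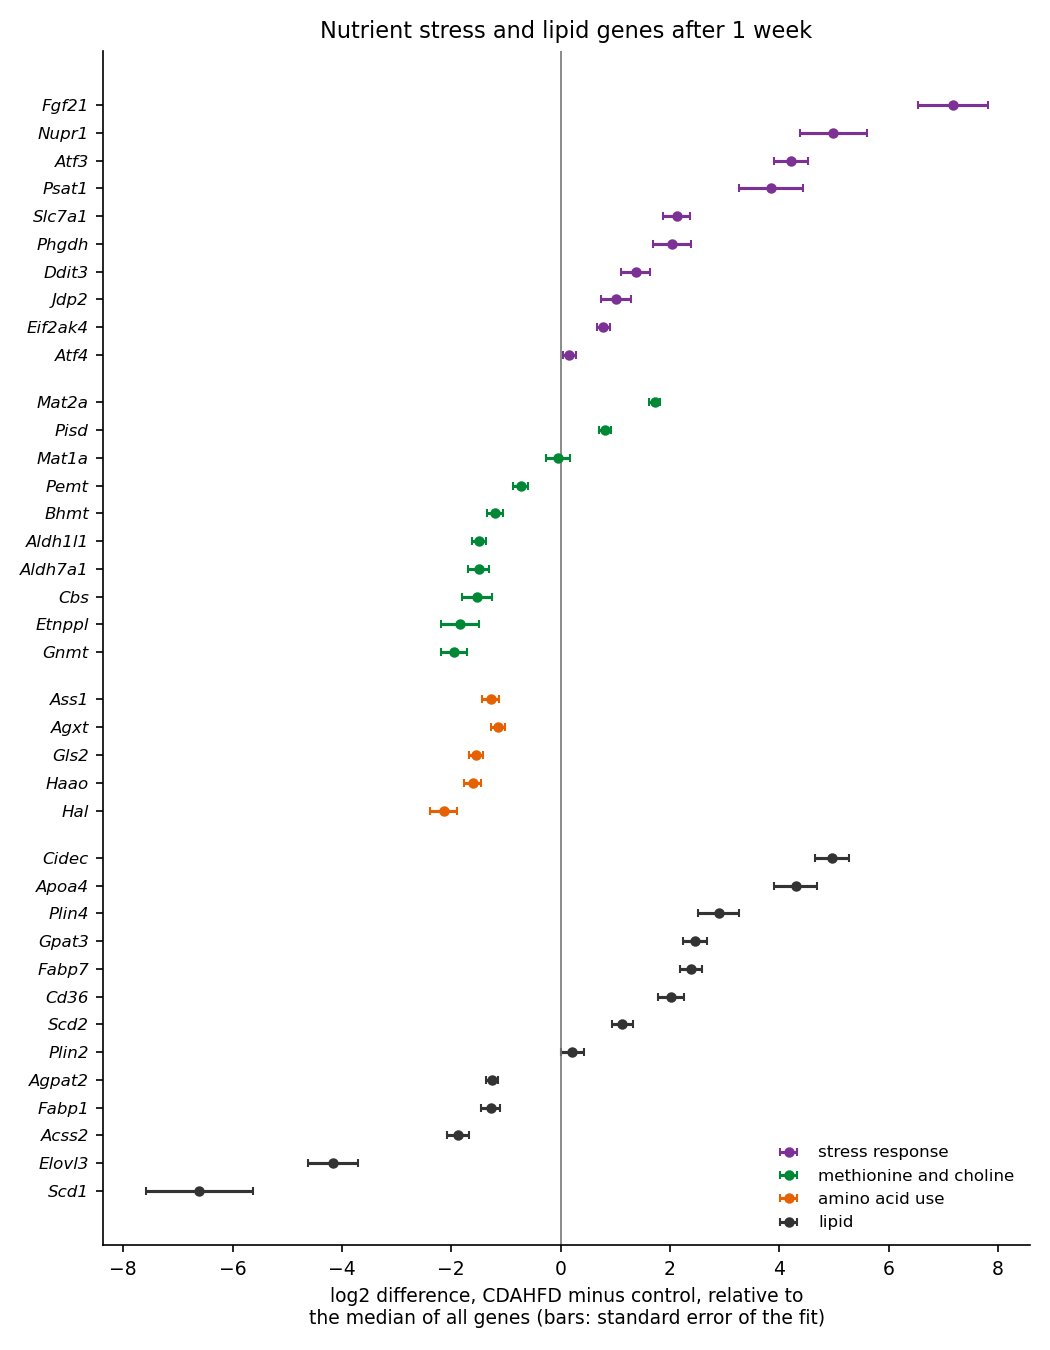
Log2 difference of CDAHFD minus the control diet after 1 week, relative to the median of all genes, for genes of the stress response, of methionine and choline use, of amino acid use and of lipid handling, with points for the fitted difference and bars for its standard error (2 arrays a group). Fgf21 at 7.17 and Nupr1 at 4.99 lie furthest to the right and Scd1 at -6.61 furthest to the left, while Atf4, Mat1a and Plin2 lie near 0 and were not called.

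Storage proteins of lipid droplets moved unevenly. Cidec, which fuses droplets, read 1.40 and 0.57 on CDAHFD, against -4.25 and -3.96 on the control diet, a difference of 4.96 ± 0.31 (adjusted p = 1.0e-05), 4.81 without the dim corner and 4.06 against the later controls. Plin4, a coat protein of droplets, read -1.59 and -1.73 on CDAHFD, against -4.77 and -4.59 on the control diet, a difference of 2.89 ± 0.37, yet only 0.17 (adjusted p = 0.61) against the later controls. Plin2, the coat protein most used as a mark of steatosis, read 3.88 and 3.65 on CDAHFD, against 3.49 and 3.34 on the control diet, and its difference of 0.21 ± 0.21 was not called (adjusted p = 0.21), while it was called higher with quantile normalization (0.74). Of 21 measured droplet proteins 4 were higher and 7 lower, and without CDAHFD replicate 1 the split was 3 and 3. Among the lower ones was Fitm1, which helps droplets form, at -1.61 ± 0.22.

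Triglyceride assembly and export, and the uptake of fatty acids, were also split. Of 30 measured members of the triglyceride and VLDL list 6 were higher and 12 lower, with 8 and 8 under quantile normalization. Apoa4, an apolipoprotein of triglyceride-rich particles, read 2.73 and 2.17 on CDAHFD, against -2.19 and -1.78 on the control diet, a difference of 4.30 ± 0.39 (adjusted p = 8.6e-05). Gpat3, an acyltransferase of the first step of triglyceride synthesis, read -0.08 and -0.39 on CDAHFD, against -3.11 and -2.55 on the control diet, a difference of 2.46 ± 0.22. Agpat2, of the next step, was lower by -1.25 ± 0.11, and Mttp, which loads lipid onto VLDL, by -0.72 ± 0.13. Apob, the core protein of VLDL, was lower by -0.84 ± 0.17, with adjusted p = 0.052 without control replicate 1 (-0.72) and 0.069 without CDAHFD replicate 1 (-0.56), and no call with quantile normalization (-0.21) or the mean of its probes (-0.33). Of 20 genes of fatty acid uptake and binding 9 were higher and 7 lower, and 7 were higher and 9 lower with median centring. Cd36, the fatty acid translocase, read -0.51 and -1.13 on CDAHFD, against -3.08 and -2.86 on the control diet, a difference of 2.02 ± 0.24. The binding proteins Fabp7 and Fabp4 were higher by 2.38 ± 0.20 and 1.2 ± 0.17. Fabp1, the binding protein of the adult hepatocyte, was lower by -1.28 ± 0.18, and differed by -0.38 (adjusted p = 0.14) against the later controls.

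Fatty acid oxidation showed no uniform direction. Of 37 measured members 3 were higher and 7 lower, against 5 and 5 without the dim corner and 4 and 1 with quantile normalization. Cpt1a, the gate of mitochondrial oxidation, was higher by 0.72 ± 0.21 (adjusted p = 0.0083), with adjusted p = 0.067 without CDAHFD replicate 1 (0.67) and 0.059 against the later controls (0.42), and no call with median centring.

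Antioxidant genes of the NRF2 list included one of the largest increases. Cbr3, a carbonyl reductase, read 2.25 and 1.53 on CDAHFD, against -3.40 and -3.36 on the control diet, a difference of 5.14 ± 0.35 (adjusted p = 1.5e-05). Srxn1, which restores oxidised peroxiredoxins, was higher by 2.32 ± 0.22 (2.25 without the dim corner), the quinone reductase Nqo1 by 2.22 ± 0.41 and haem oxygenase, Hmox1, by 1.87 ± 0.27. The other probe of Hmox1 differed by 0.46, with no call, and the mean of its probes by 1.16. The value of Nqo1 was 1.63 without control replicate 1 and 2.83 without control replicate 2, and it had no call from only the 4 arrays of 1 week (adjusted p = 0.090). Of 30 measured members of the list 9 were higher and 6 lower, with a median difference of 0.16, and 7 were higher and 9 lower with median centring. The glutathione transferase genes Gsta3 and Gsta4 went down, by -1.04 and -1.11.

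Hepatocyte identity genes were lower in most members. Of 26 hepatocyte identity genes 18 were lower and 0 higher, with a median difference of -0.75. This count was 5 with quantile normalization and 13 against the later controls, and 9 of the 26 genes were higher in the 1-week controls than in the later controls. Albumin, Alb, read 5.10 and 5.48 on CDAHFD, against 6.73 and 6.18 on the control diet, a difference of -1.30 ± 0.18, which was -1.02 without the dim corner and -0.01 (adjusted p = 0.84) against the later controls. Ttr, a carrier of thyroid hormone, was lower by -1.22 ± 0.19, and Hnf4a, the master factor of the hepatocyte, by -0.78 ± 0.11, though Hnf4a was not called with quantile normalization (-0.15). The summed signal of the hepatocyte list was 8.79 and 9.01 (log2) on CDAHFD, against 9.86 and 9.61 on the control diet.

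Drug-metabolising enzymes and growth hormone-dependent genes were lower as well. Of 26 measured cytochrome P450 genes 17 were lower and 1 higher, with a median of -1.12. Cyp3a11, the main drug-metabolising P450 of its family in the mouse, read 3.05 and 3.18 on CDAHFD, against 5.52 and 5.41 on the control diet, a difference of -2.48 ± 0.17, and -2.43 without the dim corner. Cyp2c38 was lower by -2.34 ± 0.23 (-2.63 without the dim corner, and -0.81 with no call for the mean of its probes) and Cyp2e1 by -1.0 ± 0.16, and Cyp2e1 differed by -0.43 (adjusted p = 0.058) against the later controls and by -0.13, with no call, after quantile normalization. Cyp1a2 was not called (-0.07 ± 0.18). Of 25 growth hormone axis and sex-biased genes 15 were lower and 0 higher, with a median of -1.23. The male-biased Cyp4a12a read -0.16 and -0.69 on CDAHFD, against 2.78 and 2.34 on the control diet, a difference of -3.12 ± 0.22. The list was not split by the direction of sex bias. Cyp3a41b differed by -3.23 and Cyp3a16 by -2.81, and its members ranged from -5.13 to 3.07. Igf1, the growth factor made under growth hormone, was lower by -1.47 ± 0.20, and differed by -0.51 (adjusted p = 0.064) against the later controls. Its other probes differed by -1.27, -0.57 and -0.26, of which only the first was called. Outside the lists, the citrate and succinate carrier Slc13a2 read -6.39 and -6.21 on CDAHFD, against -1.96 and -1.97 on the control diet, a difference of -4.46 ± 0.21, and the carboxylesterase Ces2a differed by -3.32 ± 0.21.

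Bile acid genes showed both directions, with the first enzyme higher. Of 22 measured, 9 were lower and 4 higher, and 5 and 5 with quantile normalization. Cyp7a1, the rate-limiting enzyme of bile acid synthesis, read 0.37 and 0.22 on CDAHFD, against -1.93 and -1.15 on the control diet, a difference of 1.70 ± 0.41 (adjusted p = 0.0078), with adjusted p = 0.055 without CDAHFD replicate 1 (1.65). Its diet difference was 0.16 at 2 weeks and 0.25 at 6 weeks, neither of them called. Cyp7b1, of the alternative pathway, was lower by -1.91 ± 0.32, with no call from only the 4 arrays of 1 week (adjusted p = 0.092), and the bile salt export pump Abcb11 by -1.22 ± 0.13. The uptake carrier Slc10a1 was lower by -0.81 ± 0.13, but differed by 0.03, with no call, after quantile normalization.

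Many chemokine genes were higher after 1 week, fewer of them under normexp. Of 33 measured chemokines and receptors of 39 listed, 23 were higher and 0 lower, with a median difference of 1.44. With normexp, where 10.9% of all genes were called higher, 12 were higher and 1 was lower. Ccl2, the chemokine that draws monocytes, read 0.29 and -0.42 on CDAHFD, against -4.06 and -5.26 on the control diet, a difference of 4.47 ± 0.41 (adjusted p = 6.5e-05), 5.07 without control replicate 1 and 3.88 without control replicate 2. Its receptor Ccr2 was below background on both control arrays and at least 9.51-fold higher on CDAHFD. Ccl7, another ligand of that receptor, was at least 15-fold higher, and the neutrophil chemokine Cxcl5 at least 7.58-fold higher, though Cxcl5 lost its call with normexp (1.04). Cxcl10, a chemokine induced by interferon, differed by 2.38 ± 0.32, and Cx3cr1, a receptor of monocytes and macrophages, by 3.15 ± 0.20. Such genes passed the filter only through the groups where they are bright, so the counts of this and the next lists describe the measured members and are not support for a direction.

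Many genes of cytokines and of Toll-like receptor signalling were higher, fewer of them under normexp. Of 18 measured cytokines 12 were higher and 1 lower, with a median of 1.12, or 0.81 at the bounds, and with normexp 5 were higher and 2 lower, with a median of 0.24. Il1b, the inflammasome cytokine, read -3.32 and -3.94 on CDAHFD, against -5.15 and -5.38 on the control diet, a difference of 1.5 ± 0.22, which lost its call with normexp (0.52). Ltb, a lymphotoxin, was higher by 1.85 ± 0.22 and Csf1, the growth factor of macrophages, by 1.26 ± 0.20. Tnf was below background on both control arrays and at least 1.73-fold higher, and with normexp its difference was -0.07. Of 30 measured Toll-like receptor and NF-kB genes 22 were higher and 2 lower, against 13 and 3 with normexp and 16 and 3 with median centring. The receptor Tlr2 read -0.89 and -1.2 on CDAHFD, against -3.68 and -3.88 on the control diet, a difference of 2.60 ± 0.21. The NF-kB subunit Relb was higher by 2.59 ± 0.24 and the NF-kB inhibitor Tnfaip3 by 2.61 ± 0.37, or 2.85 without the dim corner.

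Many interferon-induced genes were higher. Of 32 measured, 21 were higher and 0 lower, with a median difference of 0.77, against 15 higher with median centring or normexp and 14 without CDAHFD replicate 1, all with 0 lower. Oas2, which makes the signal for RNA decay, read -0.46 and -0.50 on CDAHFD, against -3.72 and -3.94 on the control diet, a difference of 3.22 ± 0.21 (adjusted p = 5.7e-06), and 1.91 against the later controls. Ubd, a ubiquitin-like protein, was at least 49.6-fold higher, since both control arrays were below background. The GTPase Gbp3 was higher by 2.10 ± 0.27 and Ifit1 by 0.79 ± 0.21. Isg15 was higher by 0.65 ± 0.26 (adjusted p = 0.038) and lost its call when any of the 4 arrays was left out (range 0.56 to 0.73), or with median centring, while it was 1.42 against the later controls. The factor Irf7 was not called (0.45 ± 0.28, adjusted p = 0.12), but was against the later controls (0.94) and with only the 4 arrays of 1 week (adjusted p = 0.033).

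Acute phase proteins did not move as a list. Of 27, 5 were higher and 9 lower, against 25.9% and 15% of all genes, and 9 were higher and 1 lower with quantile normalization. Members with a negative difference included the fibrinogen genes Fgg (-1.13), Fgb (-1.01) and Fga (-0.94), and Hp (-0.81). With quantile normalization Fgb (-0.16) and Hp (0.07) were not called, nor was Hp against the later controls (-0.25). Lcn2, an iron-scavenging protein of inflamed liver, read 3.73 and 3.37 on CDAHFD, against -1.68 and -1.63 on the control diet, a difference of 5.07 ± 0.21 (adjusted p = 1.5e-06) that was 6.05 against the later controls. Saa3, a serum amyloid of macrophages, was higher by 3.25 ± 0.25. Saa1, the liver's main serum amyloid, was not called (0.68 ± 0.36, adjusted p = 0.10), but was 1.18 (adjusted p = 0.015) without control replicate 1 and 1.86 (adjusted p = 0.0017) against the later controls.

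Markers of monocytes and macrophages were higher in 23 of 29 measured members and lower in 1, with a median difference of 1.83. All 23 were also called higher at 2 weeks, at 6 weeks and against the later controls. Of all genes higher at 1 week, 64.1% were higher again at 2 weeks and 65.7% at 6 weeks. Against the later controls 60.6% of all calls in either direction were kept. That comparison uses the same CDAHFD arrays of 1 week. The members could also pass the filter through any group where they are bright, so these repeats are not independent support. Itgax (CD11c) read -0.69 and -1.29 on CDAHFD, against -7.19 and -6.05 on the control diet, where 1 array was above background, a difference of 5.50 ± 0.34 and 4.58 against the later controls. Clec4d, a C-type lectin of inflammatory macrophages, was at least 35-fold higher and its relative Clec4e at least 7.87-fold. The pan-macrophage marker Cd68 read 1.52 and 1.1 on CDAHFD, against -0.69 and -1.0 on the control diet, a difference of 2.03 ± 0.18. Adgre1 was higher by 0.99 ± 0.39 (adjusted p = 0.046) and lost its call without control replicate 2 (0.78), CDAHFD replicate 1 (1.27) or CDAHFD replicate 2 (0.71), and with median centring, quantile normalization (0.92) or normexp (1.11). The summed signal of the list was 5.18 and 4.95 (log2) on CDAHFD, against 3.68 and 3.24 on the control diet.

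The genes of lipid-associated macrophages, the cells that gather around fat-laden tissue, were already higher. Of 22, 16 were higher and 2 lower, with a median of 1.45, and all 16 were also higher at 2 and 6 weeks and against the later controls. The shares over all genes and the limits given for the monocyte and macrophage list hold here too, so these repeats are not independent support. Trem2, their lipid receptor, read 0.37 and -0.13 on CDAHFD, against -4.68 and -4.60 on the control diet, a difference of 4.64 ± 0.21 (adjusted p = 1.5e-06) and 5.27 against the later controls. Gpnmb, a glycoprotein of the same cells, read -0.51 and -1.33 on CDAHFD and was below background on both control arrays, so it was at least 51.9-fold higher. Cd63, of lysosomes and exosomes, was higher by 2.79 ± 0.17, and the actin-capping Capg by 1.94 ± 0.15. The summed signal of the list was 7.10 and 7.11 (log2) on CDAHFD, against 7.60 and 7.29 on the control diet, so the sum, which the brightest members set, ran against the counts.

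Markers of the resident Kupffer cells gave a mixed picture. Of 18 measured, 8 were higher and 0 lower, with a median of 0.40, and 4 were higher and 4 lower with median centring. Marco, a scavenger receptor, read 1.91 and 2.63 on CDAHFD, against -0.35 and -1.51 on the control diet, a difference of 3.07 ± 0.57, and 3.66 without control replicate 1, with adjusted p = 0.056 from only the 4 arrays of 1 week. Spic, the factor of iron-recycling macrophages, was higher by 1.88 ± 0.25. Clec4f, the most specific Kupffer marker, was not called (0.33 ± 0.24, adjusted p = 0.16), but was 0.68 (adjusted p = 0.021) without the dim corner. Timd4, a marker of long-resident Kupffer cells, differed by 2.60 ± 0.89 with a control probe spot in the dim corner, and by 1.1 (adjusted p = 0.086) without that corner.

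Markers of other white cells differed by type. Of 15 dendritic cell markers measured of 21, 12 were higher and 1 lower, with Clec9a at least 7.93-fold higher and Cd83 at 2.27 ± 0.21. For T and NK cells the split was 13 higher and 3 lower of 21, but 1 and 3 with normexp. Klrd1 was at least 6.75-fold and Il7r at least 3.94-fold higher, both below background on the control arrays and both without a call with normexp (0.83 and 0.49). The T cell receptor chain gene Cd3e was lower by -1.02 ± 0.21, with -0.80 and no call without control replicate 1 or CDAHFD replicate 1, and -0.05 against the later controls. The summed T and NK signal was 1.86 and 2.02 (log2) on CDAHFD, against 2.19 and 2.10 on the control diet. Of 14 B cell markers 6 were higher and 1 lower, but 1 and 3 with normexp. Blnk, an adaptor of B cells and macrophages, was higher by 2.62 ± 0.29. Of 13 neutrophil markers 4 were higher and 2 lower, and 2 and 2 with normexp. S100a8 was higher by 2.65 ± 0.29 and S100a9 by 2.87 ± 0.33, and S100a9 was higher by 3.49 without control replicate 1 and 2.27 without control replicate 2. The neutrophil marker Ly6g was not called (0.24 ± 0.21, adjusted p = 0.18), and Camp differed by -1.51 and Elane by -0.81. The summed neutrophil signal was 4.01 and 4.09 (log2) on CDAHFD, against 4.29 and 4.22 on the control diet.

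Matrix genes were higher within the first week. Of 31 stellate cell and matrix genes 24 were higher and 1 lower, with a median difference of 1.34. Col1a1, the chain of fibrillar collagen, read 0.65 and 0.35 on CDAHFD, against -2.47 and -1.67 on the control diet, a difference of 2.44 ± 0.25, and 3.84 against the later controls. Col1a2 was higher by 2.09 ± 0.20. Acta2, the mark of contractile stellate cells, read -1.01 and -1.5 on CDAHFD, against -3.97 and -2.73 on the control diet, a difference of 1.97 ± 0.41 that was 1.36 without control replicate 1 and 2.60 without control replicate 2, with adjusted p = 0.075 from only the 4 arrays of 1 week. Timp1, the inhibitor of matrix proteases, was below background on both control arrays and at least 32.9-fold higher. The summed matrix signal was 5.76 and 5.62 (log2) on CDAHFD, against 5.46 and 5.40 on the control diet. Of 20 sinusoidal endothelial markers 4 were higher and 0 lower, against 3 and 6 with median centring, among them Lyve1 at 1.21 ± 0.28 and Cd34 at 1.56 ± 0.22, while Stab2 was not called (0.12 ± 0.12) except against the later controls (0.26) and with quantile normalization (0.31). Of 10 bile duct markers 2 were higher and 0 lower, against 1 and 3 with normexp, with Krt23 at 1.23 ± 0.25.

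Cell cycle genes were higher in 22 of 28 measured members and lower in 1, with a median difference of 1.81, against 11 higher and 1 lower with a median of 0.80 under normexp. Mki67, the general mark of cycling cells, read -1.57 and -1.64 on CDAHFD, against -4.77 and -5.00 on the control diet, a difference of 3.15 ± 0.29. The mitotic cyclin Ccnb2 was higher by 2.68 ± 0.27, and topoisomerase Top2a was at least 3.07-fold higher with both control arrays below background, and lost its call with normexp (0.44). Of 19 p53 targets 10 were higher and 0 lower, or 5 and 1 with median centring and 6 and 0 with normexp, among them Phlda3 at 2.16 ± 0.22. The cycle inhibitor Cdkn1a was higher by 1.77 ± 0.43, by 1.0 without control replicate 1 and by 2.56 without control replicate 2, with no call from only the 4 arrays of 1 week (adjusted p = 0.12). Its other probe differed by 0.23, with no call, and the mean of its probes by 0.99. Mdm2 was higher by 1.1 ± 0.13, against 0.19 (adjusted p = 0.10) with the later controls. Of 12 ErbB receptors and ligands 6 were higher and 0 lower, and 2 and 2 with normexp. The brightest probe of the receptor Egfr was not called (-0.44), while its other probes were lower (-1.55 and -1.36). The growth factor Nrg1 differed by 5.41 ± 0.77, or 4.08 without the dim corner and 6.76 without control replicate 2, and had no call from only the 4 arrays of 1 week (adjusted p = 0.086). Another ligand, amphiregulin, Areg, was at least 4.87-fold higher but lost its call with normexp (0.62). Which cells cycled was not measured.

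Erythroid genes fell, with 7 of 9 measured members lower and 0 higher and a median difference of -1.59. Haemoglobin Hba-a1 read 1.57 and 1.70 on CDAHFD, against 2.87 and 3.60 on the control diet, a difference of -1.73 ± 0.24, and -2.10 without the dim corner. Hbb-b1 was lower by -1.95 ± 0.22, and the haem synthesis enzyme of red cells, Alas2, by -1.59 ± 0.16. Haemoglobin genes come in near-identical copies, so the probes of a copy may read its neighbour. In the circadian clock 5 of 18 genes were higher and 1 lower, but 2 and 3 against the later controls. Per1 was higher by 1.84 ± 0.29, against 0.50 (adjusted p = 0.11) with the later controls, and Arntl was lower by -1.48 ± 0.39, a call lost without control replicate 2 (-1.12), CDAHFD replicate 1 (-1.53) or CDAHFD replicate 2 (-1.43). The hour of sampling is not given in the labels.

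Among genes above background on all 4 arrays, those with the largest increases besides Lcn2, Cbr3, Nupr1 and Cidec were Ly6d, Neat1, Lilrb4a and Cgref1. Ly6d, a membrane protein of the Ly6 family, read 1.29 and 0.22 on CDAHFD, against -4.70 and -4.41 on the control diet, a difference of 5.18 ± 0.36. Neat1, the long RNA of paraspeckles, read 3.16 and 2.79 on CDAHFD, against -2.11 and -2.04 on the control diet, a difference of 4.92 ± 0.40 that was 2.51 against the later controls. Lilrb4a, an inhibitory receptor of myeloid cells, differed by 4.74 ± 0.32, or 3.32 against the later controls, and Cgref1, a secreted growth regulator, by 4.70 ± 0.24. Among genes below background on the control arrays, Adam8, a protease of leukocytes, had a mean level of -1.26 on CDAHFD and -6.5 on the control diet. Its value of 37.7-fold rests on its own control signal, so it is not a lower bound.

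Most genes called higher or lower in the first week were called again. Of the 3603 genes higher after 1 week, 2308 (64.1%) were also higher at 2 weeks and 2367 (65.7%) at 6 weeks, where 22.9% and 24.5% of all genes were higher. Of the 2086 lower genes, 1272 (61.0%) and 1145 (54.9%) were lower again, where 14.9% and 16.2% of all genes were lower. In all, 37.8% of the genes were called at 2 weeks and 40.7% at 6 weeks. The test of the difference itself, the 1-week diet effect minus the mean of the later ones, called 974 genes (7.01%, each value printed relative to the median of this contrast, 0.02), 563 with a higher value at 1 week (4.05%) and 411 with a lower one (2.96%). That count was 132 without CDAHFD replicate 1, 224 without CDAHFD replicate 2 and 383 without control replicate 1. Among lipid-associated macrophage genes 9 of 22 were called lower in the 1-week effect. Trem2 differed between the diets by 4.64, 6.34 and 7.43 at 1, 2 and 6 weeks (1 week minus later -2.19, adjusted p = 0.0035), and Capg by 1.94, 3.58 and 4.15 (-1.86, adjusted p = 0.0014). Lpl, the lipase that frees fatty acids from lipoproteins, differed by 0.94 (1.08 without the dim corner), 2.59 and 3.05 (-1.82, adjusted p = 0.0061), and Col1a1 by 2.44, 3.52 and 4.01 (-1.26, adjusted p = 0.041). In the stress response list 2 of 42 genes had a higher 1-week effect and 0 a lower one, and Fgf21 was not among them (2.14, adjusted p = 0.14).

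**Figure D4:**
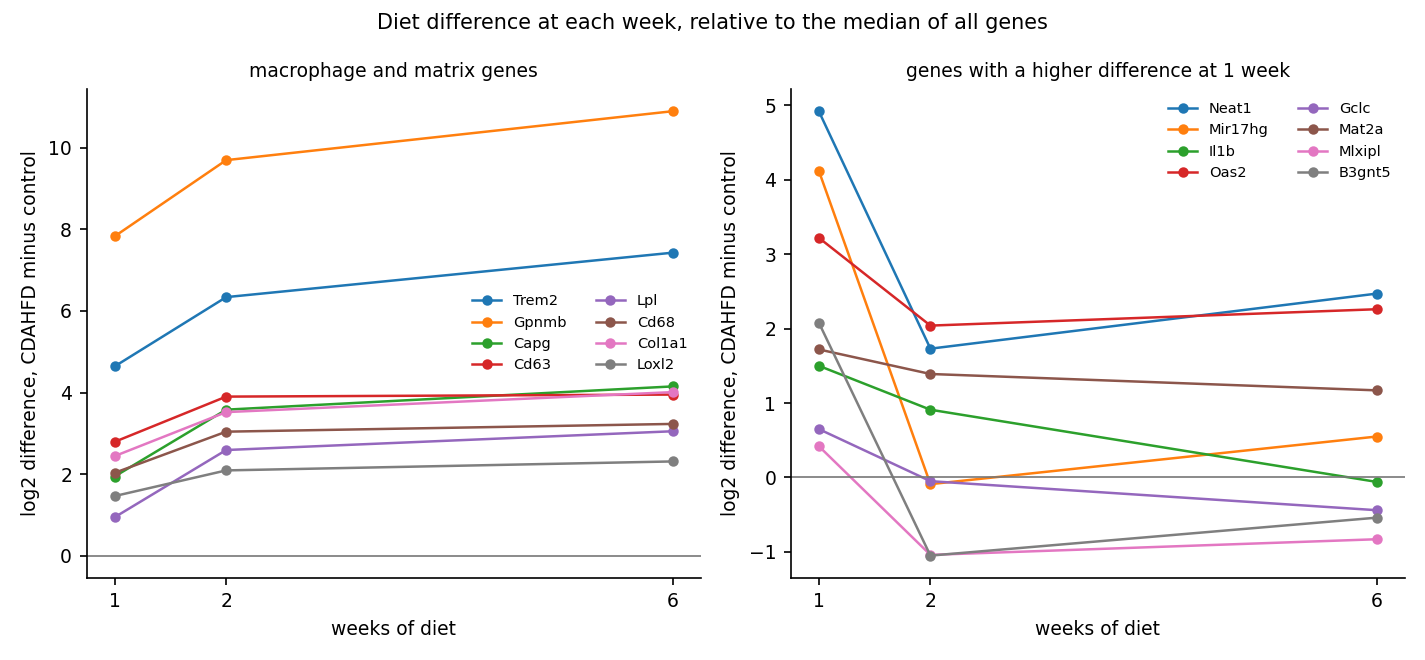
Log2 difference of CDAHFD minus the control diet at 1, 2 and 6 weeks (horizontal axis), relative to the median of all genes, each point from 2 arrays a diet. On the left, macrophage and matrix genes such as Trem2 and Gpnmb start lower at 1 week than later (Gpnmb was below background on both control arrays of 1 week, so its first point carries no exact size). On the right, genes called with a higher difference at 1 week, among them Neat1 at 4.92 and Il1b at 1.5, are lower at 2 weeks, and B3gnt5 was below background on both control arrays of 1 week.

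Among genes with a higher signed difference at 1 week than later, Il1b differed by 1.5, 0.91 and -0.06 at 1, 2 and 6 weeks (1 week minus later 1.14, adjusted p = 0.033) and Oas2 by 3.22, 2.04 and 2.26 (1.13, adjusted p = 0.030). Mat2a differed by 1.72, 1.39 and 1.17 (0.51, adjusted p = 0.036). Gclc, the rate-limiting enzyme of glutathione synthesis, differed by 0.65, -0.05 and -0.44 (0.96, adjusted p = 0.042), and the first of these values lost its call without CDAHFD replicate 1 (0.60, adjusted p = 0.084), against the later controls (0.30) and with median centring. Mlxipl differed by 0.42, -1.04 and -0.83 (1.42, adjusted p = 0.0085). The first of these values was 0.06, with no call, for the mean of its probes and -0.67 against the later controls. Its sign at 1 week thus depended on which controls were used.

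Part of such a value can come from the control arrays, since the 1-week controls differed from the later controls in 2526 genes (18.2%), 1120 of them higher (8.06%) and 1406 lower (10.1%). The mice of the later controls were also older, and the 6-week arrays lay on another slide. Age, time on chow and, for week 6, slide cannot be told apart in that comparison. With the controls of weeks 2 and 6 in place of those of 1 week, 4896 genes (35.2%) were called, 3192 higher (23%) and 1704 lower (12.3%), and 3446 of the 5689 (60.6%) kept their call and direction while 35 were called the other way. Fgf21, Nupr1, Atf3, Scd1, Elovl3, Cidec, Apoa4, Ccl2, Lcn2, Trem2 and Gpnmb all kept their calls in that comparison. With the dim corner masked 5487 of the 5689 (96.4%) kept theirs, and 0 turned.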

How the data were processed

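Total RNA of 12 liver samples, 2 for each diet and week, was labelled with Cy3 (150 ng each, per the labels' protocols) and hybridised to Agilent one-colour arrays. The deposited intensity values are Feature Extraction processed signals, which were corrected for background and spatial trend, per the file headers, with no scaling of one array to another. These headers name version 11.5.1.1, and the submitters' processing notes name 10.7. Each array held 62976 spots, and 0 of its 59305 gene spots were saturated.

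Control spots and outlier spots were left out, spots of a probe were averaged, and the log2 of the deposited signal was taken minus each array's 75th percentile, taken from the 20137 probes that passed the background flag on every one of the 12 arrays. Genes were read by their brightest probe and kept where 1 group or more had that probe above background in both of its arrays. Of 55681 probes 28664 were named through a RefSeq table (GRCm38.p6). limma 3.58.1 in R 4.3.3 fitted 6 group means to all 12 arrays (6 residual degrees of freedom, trended robust eBayes) with Benjamini-Hochberg adjustment over the 13900 genes and a threshold of 0.05. The number of arrays limits the precision. On simulated data with 13900 genes, 47 of 100 genes changed by 1 (log2) and 91 of 100 changed by 2 were recovered for the diet effect, with 6 false calls. Only these genes were changed there, with independent normal noise and no dim corner or background floor. In the data 40.9% of genes were called, so these counts do not give the recovery or false calls of the real comparison.

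The 1-week arrays and those of 2 weeks lay on slide 1 and the 6-week arrays on slide 2, so the 1-week comparison lies within 1 slide. Replicate numbers were not used as pairs. The members, the 37 gene lists (844 of 920 symbols measured) and the rule for named genes were chosen with earlier results of these data known. The rule took the 8 largest differences in each direction among genes above background on all 4 arrays, the 8 in each direction among the others, the first 3 of each list and up to 6 of its smallest adjusted p, and the 6 largest in each direction for the difference between weeks. Alternatives were other scalings, normexp (offset 50, on median rather than mean signals, which the files do not give), other filters and probe rules, other limma options, the dim corner masked, later controls, a 2-fold minimum and each array left out. Results for some named genes were left out of the text.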

Additional observations from a re-analysis of the deposited data

Results flagged for a closer look

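In 974 genes the diet difference at 1 week was not the same as the later one, by the test of the difference itself within the limma fit. The 6 genes with the largest positive and the 6 with the largest negative values are given here, each as the 1-week difference minus the mean of the later ones. Every value is relative to the median of all genes in its own contrast, so the weekly differences do not add up to it exactly. Where a probe was not above background in a group, the differences depend on background signal and have no exact size, which also holds for their order.

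Serpina4-ps1, a pseudogene of the serpin family, had the largest positive value, 5.31, with diet differences of -0.17, -3.90 and -6.93 at 1, 2 and 6 weeks. Mir17hg, the host transcript of a microRNA cluster, followed with 3.95, from 4.12, -0.09 and 0.55, with 1 of the 2 control arrays of 1 week above background, but the 1-week livers differed by only 0.39 from the later controls. Pdpr had 3.04 and was below background on all 4 arrays of 1 week. B3gnt5, a glycosyltransferase, had 2.94, from 2.08, -1.05 and -0.54. It was below background on both control arrays of 1 week, where it was at least 1.31-fold higher on CDAHFD, and its 1-week difference was -0.36 with normexp. Ugt2a1, a glucuronosyltransferase, had 2.91, from 1.69, -0.82 and -1.49. It too was below background on both control arrays of 1 week, at least 1.90-fold higher on CDAHFD, with a 1-week difference of 2.04 without the dim corner and -0.15 with normexp. Neat1 had 2.88, from 4.92, 1.73 and 2.47, and its 1-week controls were lower than the later controls by -2.47.

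On the other side, Themis, a T cell signalling gene, had -4.16 and was below background at 1 week, where its difference was -0.08, against 3.45 and 4.83 later. The acute phase gene Orm3 had -3.60, from 0.02, 3.90 and 3.47. Moxd1 had -3.49, from -5.13, -0.64 and -2.52, and its probe lies in the dim corner, without which the first value was -4.49. It was below background on both CDAHFD arrays of 1 week and at least 9.60-fold lower there. Its 1-week controls were higher than the later controls by 3.45. Syngr1 had -3.46, from 1.15, 3.91 and 5.45, with 1 of the 2 control arrays of 1 week above background. Trim29 had -3.21 and was below background at 1 week, and Vsig8 had -3.16, from 5.31, 8.36 and 8.71. Vsig8 was below background on both control arrays of 1 week and at least 19.9-fold higher on CDAHFD.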

How the results depend on the processing

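With 2 arrays a group the counts rest on each array, and dim genes are limited by signal over background. Of the 5689 genes called for the 1-week diet effect, 5487 kept call and direction with the dim corner masked, 5115 with only the 4 arrays of 1 week, 4250 with median centring, 4202 with quantile normalization, 3446 with the later controls, 3317 with normexp and 3159 with the week-2 controls. The total ranged over 3079 to 4868 calls with 1 array left out and was 2440 with a 2-fold minimum. Calls of higher genes ranged over 2059 to 3154 with 1 array left out and were 2296 with the percentile over all probes, 2164 when centred on the median, 1510 under normexp and 1931 with the 2-fold minimum. Calls of lower genes ranged over 1020 to 1714 with 1 array left out and were 4069, 4399 and 509 for the all-probe percentile, median centring and the 2-fold minimum, 4558 with no filter and 1389 with the week-2 controls. The median difference of all genes was 0.13, against -0.20 with median centring or normexp, -0.16 with the all-probe percentile and 0.06 with quantile normalization. For the 1-week effect minus the later one, the total of 974 became 518 with normexp, 637 with no filter and 421 with the 2-fold minimum. Its 563 higher calls became 349 when centred on the median, 199 under normexp, 353 with no filter and 239 with the 2-fold minimum, and its 411 lower calls became 182 with the 2-fold minimum. With 1 array left out these ranged over 132 to 994 in all, 53 to 642 higher and 79 to 352 lower. For the 1-week controls against the later ones, the 2526 calls became 1125 with normexp and 552 with the 2-fold minimum, the 1120 higher ones 1915 when centred on the median, 621 under normexp and 270 with the 2-fold minimum, and the 1406 lower ones 853, 504 and 282. With 1 array left out these ranged over 681 to 1885, 224 to 774 and 457 to 1111. Replicate numbers did not pair the samples (correlation of same-numbered deviations -0.14 between the diets at 1 week), and with the replicate block 3585 genes were higher and 2085 lower. Of 301 named genes, some reversed: Skint4 (0.23), Tef (-0.03) and Egf (-0.05) with the later controls, Ass1 (1.27) and Nkg7 (0.67) with the mean of probes, Dgat2 (0.24), Slc10a1 (0.03) and Hp (0.07) with quantile normalization, and Tnf (-0.07), Oas3 (-0.08), Klrb1c (-0.09), Mmp8 (-0.37), Il1r2 (-0.34), Spint1 (-0.26), Ereg (-0.15), Egf (-0.44), B3gnt5 (-0.36), Ugt2a1 (-0.15) and Syngr1 (-0.20) with normexp. The cause was not tested, except that leaving out an array leaves fewer samples.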
